A study of Mus musculus with 9 samples.

Results

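The members described here are 8 genes for amino acid transporters of the plasma membrane, chosen by symbol as Slc7a5, Slc3a2, Slc7a6, Slc1a5, Slc38a1, Slc38a2, Slc7a1 and Slc43a1. All 8 were found among the 26683 genes of the count table, and all 8 were abundant enough to enter the test of 12738 genes. The RNA came from regulatory T cells (Treg cells) of the spleen, sorted as CD4+ cells with the yellow fluorescent reporter of Foxp3. The KO group was 4 female EsrrgNf/f.Foxp3YFP-Cre mice, which carry a floxed Esrrg gene, and the WT group was 5 female B6N.Foxp3YFP-Cre mice. Both groups were 2 to 3 months old, with 1 library per mouse. Both carried the Foxp3-driven Cre, so Cre itself was shared, and deletion of Esrrg was directed to cells that express Foxp3. B6N is named for the WT mice alone, and genotype and strain background cannot be told apart. Esrrg encodes the nuclear receptor estrogen-related receptor gamma, known for its control of mitochondrial genes. The comparison asked which Treg transcripts differ between these genotypes.

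Amino acid transporters bring in the building blocks of protein, the glutamine that feeds mitochondria, and the leucine and arginine that the growth kinase mTORC1 senses. Resting T cells keep this uptake low, and activation raises it. Some of these transporters are exchangers, which trade one amino acid for another, and others use the sodium gradient to concentrate amino acids in the cell. An exchanger such as the Slc7a5 and Slc3a2 pair can draw on glutamine brought in by carriers such as Slc1a5, Slc38a1 and Slc38a2.

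Among the 9 libraries, total counts ran from 15269014 to 17425634. Treg markers summed to 4336 to 4667 CPM (a gene's counts over the library's scaled total, times 1e6) in KO and 4378 to 4617 CPM in WT, with 7 of 7 markers detected. Esrrg itself had 0 counts over all libraries, which allows up to 0.0206 CPM by counting error alone, so it could not check the labels. Single libraries stood apart. Plasma cell markers (7 of 7 detected) summed to 696 CPM in KO 4 and 323 CPM in KO 1. In WT they summed to 173 to 229 CPM, of which Xbp1 and Irf4 averaged 82.1 and 76.2 CPM and Jchain 33.6 CPM. Sdc1, Mzb1, Tnfrsf17 and Derl3 averaged 0.24 to 1.02 CPM there, and Jchain reached 460 CPM in KO. Neutrophil markers (8 of 8) summed to 136 and 42.5 CPM in those same KO libraries, against 1.93 to 7.03 CPM in WT. Mpo and Elane reached 91.5 and 17.9 CPM in KO, and S100a8, S100a9, Camp, Ngp and Ltf at most 8.63 CPM. Ly6g had 7 counts over all libraries, and it alone of these had a lower mean in KO (0.028 CPM) than in WT (0.063 CPM). Summed macrophage (9 of 9), B cell (7 of 7), erythroid (8 of 8) and CD8 T and NK cell (5 of 5) markers were at 27.6 to 146, 37.3 to 53.1, 2.25 to 28.01 and 17.4 to 19.9 CPM in KO, and at 26.2 to 80.7, 32.4 to 41.8, 3.88 to 15.95 and 15.5 to 19.2 CPM in WT. KO 4 also held 27 Xist counts, against at least 27355 in every other library, although all mice are labelled female. In WT 1, immediate early genes summed to 9844 CPM, against 2739 to 3066 CPM in KO and 2600 to 3268 CPM in the other WT libraries.

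Of the 8 transporters, 1 differed between the genotypes. Slc38a2, the sodium-coupled carrier SNAT2 that concentrates glutamine and alanine, was lower in KO by 27.7%, and the other 7 did not pass the test. By edgeR's quasi-likelihood test with Benjamini-Hochberg adjustment, 1 of 8 members passed an adjusted p of 0.05, beside 3.28% of all tested genes (1.4% higher and 1.88% lower in KO). The KO and WT values failed to overlap for the same 1 of 8, beside 9.11% of all tested genes. Of the 8, 7 had a positive log2 fold change (KO over WT), with a median over the 8 of 0.05, against 51.5% positive and a median of 0.0052 over all tested genes. Without KO 1 and KO 4, 5 of the 8 were positive.

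**Figure D1:**
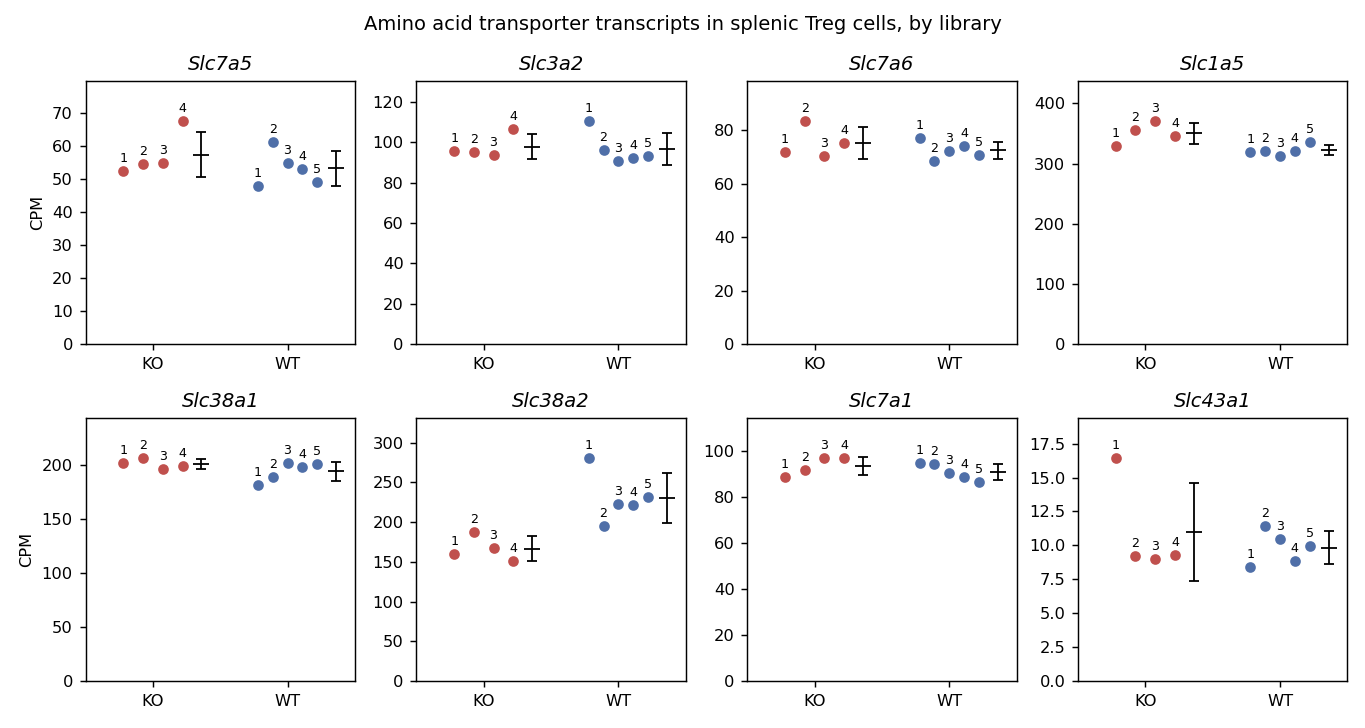
CPM (vertical axis, from 0) of each of the 8 transporters in the KO (red) and WT (blue) libraries; points are single mice with their replicate number, and the black bar at the right of each group is its mean ± SD (n = 4 KO and n = 5 WT). The groups are apart for Slc38a2, at 150.5 to 187 CPM in KO and 195 to 281 CPM in WT, and overlap for the other 7.

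The heavy chain gene and those of its light chains Slc7a5 and Slc7a6 did not pass the test. Slc3a2 (ENSMUSG00000010095, chromosome 19, 8706882 to 8723369, minus strand, mm10) encodes CD98hc, the glycoprotein that carries light chain transporters to the cell surface. Library by library it was at 95.8, 95.3, 93.5 and 106.8 CPM in KO 1 to KO 4, against 110.4, 96.4, 90.7, 92.3 and 93.1 CPM in WT 1 to WT 5. The highest libraries were WT 1 and KO 4, so the ranges overlapped. The means were 97.9 ± 6.02 CPM in KO (SD, n = 4) and 96.6 ± 8.01 CPM in WT (n = 5). KO over WT, this was 0.019 ± 0.061 on the log2 scale (SE; adjusted p = 0.894 by edgeR). The sign turned without WT 3 (-0.0066), WT 4 (-0.00095) or KO 4 (-0.029).

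Slc7a5 (ENSMUSG00000040010, chromosome 8, 121881150 to 121907694, minus strand) encodes LAT1, the light chain that exchanges glutamine for leucine and other large neutral amino acids. Its level was 52.5, 54.7, 54.96 and 67.6 CPM in KO 1 to KO 4, against 47.99, 61.4, 55.0, 53.2 and 49.2 CPM in WT 1 to WT 5. KO 4 lay above every other library and the other 3 KO libraries lay within the WT range. KO over WT, it differed by 0.11 ± 0.09 on the log2 scale (adjusted p = 0.513 by edgeR), and by 0.015 without KO 4. The gene overlaps the gene model Gm20388 on the opposite strand, a model that has no row among the counts, and no source used here says whether counting went by strand.

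Slc7a6 (ENSMUSG00000031904, chromosome 8, 106168857 to 106198706, plus strand) encodes y+LAT2, a light chain that exchanges arginine for glutamine. It was at 71.8, 83.5, 70.4 and 75.4 CPM in KO 1 to KO 4, against 77.0, 68.5, 72.2, 74.3 and 70.9 CPM in WT 1 to WT 5. KO 2 was the highest library and the groups overlapped. Its log2 fold change was 0.05 ± 0.05 (edgeR adjusted p = 0.612), and -0.0019 without KO 2.

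The remaining light chains that pair with CD98hc were sparse, apart from Slc7a10, and they were named for this pairing after their values were seen. Slc7a10, a carrier of small neutral amino acids, had 1762 counts over the 9 libraries, with 13.9 CPM in KO and 10.6 CPM in WT on average and a log2 fold change of 0.39 ± 0.12 (edgeR adjusted p = 0.0964). Slc7a7 had 227 counts in all, Slc7a8 had 93, and the cystine exchanger gene Slc7a11 had 11.

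No correlation from mouse to mouse between the heavy chain and its light chains passed the test. Over the 9 libraries, log2 CPM of Slc3a2 and Slc7a5 had Pearson's r of 0.15 (two-sided exact permutation p = 0.703) and Spearman's rho of 0.0 (exact p = 1.0). For Slc3a2 and Slc7a6 the values were 0.34 (exact p = 0.378) and 0.22 (exact p = 0.581), and for Slc7a5 and Slc1a5 they were 0.21 (exact p = 0.599) and 0.20 (exact p = 0.613). After adjustment over these 3 relations the p-values were 0.703 each for r and 0.920 to 1.0 for rho. The first relation changed with single libraries. Its r was 0.81 without WT 1 (adjusted exact p = 0.0676), -0.42 without KO 4 (0.590) and 0.41 without both, which are the 2 libraries farthest from the median of Slc3a2. Without that same pair, farthest from the median for Slc7a5 as well, r was 0.051 for Slc3a2 with Slc7a6 and -0.14 for Slc7a5 with Slc1a5. Centred on the group means, r was 0.12, 0.32 and -0.13 for the 3 relations in the order given.

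Slc1a5 (ENSMUSG00000001918, chromosome 7, 16781340 to 16798274, plus strand) encodes ASCT2, a sodium-dependent exchanger known as a main glutamine carrier of activated T cells. It was at 330.03, 355, 370.5 and 346 CPM in KO 1 to KO 4, against 319.6, 321, 313, 321 and 337 CPM in WT 1 to WT 5. Of the KO libraries, 3 lay above every WT library and KO 1 lay within the WT range. The means were 350.4 ± 16.9 CPM in KO and 322 ± 8.62 CPM in WT (SD), and with a log2 fold change of 0.12 ± 0.04 (edgeR adjusted p = 0.110) Slc1a5 missed the threshold. Its adjusted p ran from 0.0501 (DESeq2) to 0.280 over 22 alternative fits, none of which passed it, and its log2 fold change from 0.09 to 0.17.

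Slc38a1 (ENSMUSG00000023169, chromosome 15, 96571418 to 96642913, minus strand) encodes SNAT1, a sodium-coupled glutamine carrier closely related to SNAT2. It was at 202, 206.6, 196.4 and 198.8 CPM in KO 1 to KO 4, against 181, 189, 201.5, 197.7 and 200.5 CPM in WT 1 to WT 5. The KO values fell within or just above the WT range. A log2 fold change of 0.05 ± 0.04 was estimated (edgeR adjusted p = 0.486).

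Slc38a2 (ENSMUSG00000022462, chromosome 15, 96687392 to 96699730, minus strand) is known as a gene that cells induce when amino acids run short or the medium is hypertonic, in part through the transcription factor ATF4. Its level was 160.5, 187, 168 and 150.5 CPM in KO 1 to KO 4, against 281, 195, 223, 222 and 231 CPM in WT 1 to WT 5. All 4 KO libraries lay below the lowest WT library, and the gap between KO 2 and WT 2 was small beside the range within WT. The means were 167 ± 15.4 CPM in KO (SD, n = 4) and 230.3 ± 31.5 CPM in WT (n = 5). With a log2 fold change of -0.47 ± 0.10 (adjusted p = 0.0414 by edgeR), Slc38a2 stood 70th by size and 193rd by p among the 240 genes called lower in KO. The median absolute log2 fold change of all called genes was 0.29.

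The direction of Slc38a2 held in 22 of 22 alternative fits, with log2 fold changes from -0.53 to -0.29, while the call held in 11 of them. It ended without WT 3 (adjusted p = 0.104), WT 4 (0.0846), WT 5 (0.102), KO 1 (0.0946), KO 3 (0.0871) or KO 4 (0.111), and it remained without WT 1 (-0.39, 0.0207). Without KO 1 and KO 4 together the log2 fold change was -0.38 (0.283).

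**Figure D2:**
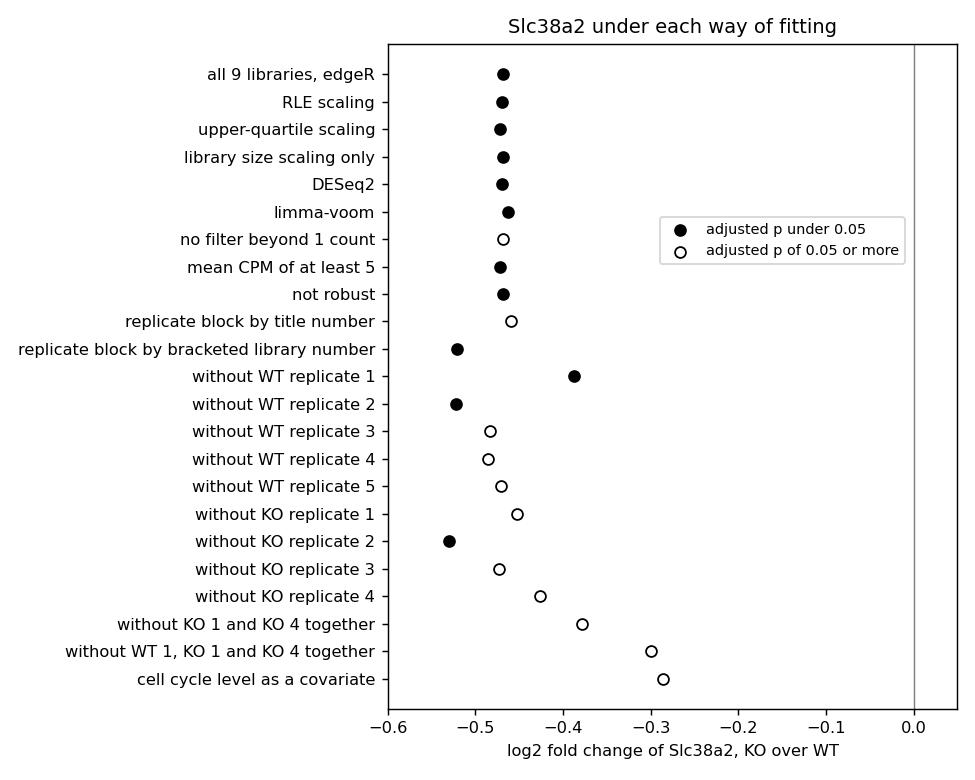
Log2 fold change of Slc38a2, KO over WT (horizontal axis), in the fit of all 9 libraries by edgeR and under each of 22 alternatives (rows); filled points passed an adjusted p of 0.05 and open points did not. All points lie between -0.53 and -0.29, and 11 of the 22 alternatives are filled.

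Libraries with extreme Slc38a2 levels also stood apart in other transcripts. WT 1, with the highest Slc38a2, also held the most immediate early RNA (9844 CPM), and without WT 1 the log2 fold change of Slc38a2 was -0.39 (edgeR adjusted p = 0.0207). Among the other WT libraries, WT 2 had the highest immediate early sum (3268 CPM) with the lowest Slc38a2. WT 5 had the lowest sum (2600 CPM) with the highest Slc38a2 (231 CPM) of these. In KO, KO 2 was highest and KO 4 lowest in both. Cell cycle genes were highest in KO 4 and KO 1. They summed to 1596, 1026, 1142 and 1780 CPM in KO 1 to KO 4, against 917, 1284, 814, 939 and 881 CPM in WT 1 to WT 5, so that WT 2 had the highest cell cycle level and the lowest Slc38a2 level of its group. In a fit with the log2 cell cycle level as a covariate, chosen after seeing the data, the log2 fold change of Slc38a2 was -0.29 (edgeR adjusted p = 0.286), and 47 genes passed in place of 418. Plasma cell, neutrophil and macrophage markers were also highest in KO 4 and KO 1 (696 and 323, 136 and 42.5, and 146 and 93.1 CPM), the 2 libraries with the least Slc38a2, and their part in the result was not tested. In such bulk samples fewer cells with a transcript and less RNA per cell cannot be told apart.

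**Figure D3:**
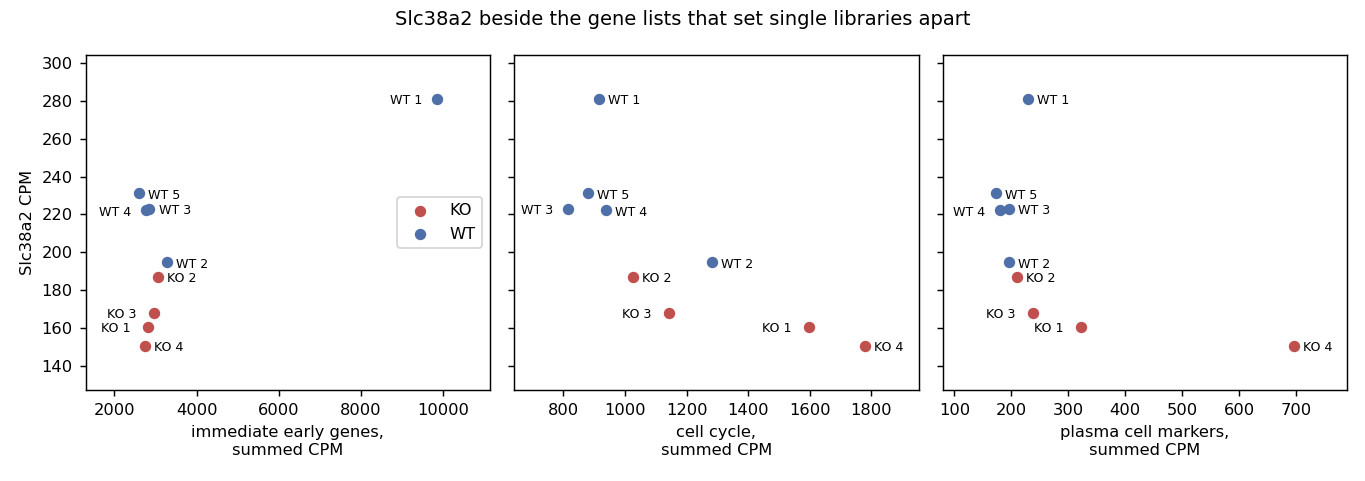
CPM of Slc38a2 (vertical axis, which does not start at 0) against the summed CPM of immediate early genes, cell cycle genes and plasma cell markers (horizontal axes); each point is 1 library, with KO in red and WT in blue. WT 1 stands apart at 9844 CPM of immediate early genes, and KO 1 and KO 4 have the highest cell cycle levels (1596 and 1780 CPM) with the lowest Slc38a2 levels.

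Slc38a1 and Slc38a2 lie 44479 bases apart on chromosome 15, on the same strand, and only Slc38a2 was called. The ratio of Slc38a2 to Slc38a1, each per length, was 0.94, 1.08, 1.02 and 0.90 in KO 1 to KO 4, against 1.84, 1.22, 1.31, 1.33 and 1.37 in WT 1 to WT 5. By this length, the longest annotated transcript, Slc38a2 exceeded its neighbour in 2 of 4 KO libraries and in 5 of 5 WT libraries. With the union of all annotated exons as length, chosen after seeing the data, it did so in 4 of 4 KO and 5 of 5 WT libraries, with ratios of 1.48 to 1.77 in KO and 2.01 to 3.03 in WT. Within 500 kb of Slc38a2, the other 3 tested genes had log2 fold changes of -0.056 (2610037D02Rik, adjusted p = 0.908), -0.075 (Arid2, 0.427) and -0.040 (Scaf11, 0.557). The same windows held 6, 32, 14 and 4 tested genes for Slc7a5, Slc3a2, Slc1a5 and Slc38a1, and 7, 25 and 15 for Slc7a1, Slc7a6 and Slc43a1. Across the neighbourhoods of all 8 members, 1 further gene was called, beside 3.28% of all tested genes. It was the immunoproteasome gene Psmb10, which lies 230413 bases from Slc7a6 and was higher in KO by 0.19 on the log2 scale (edgeR adjusted p = 0.0494).

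The Slc38a2 promoter is shown because this gene carried the only call, and that of Slc43a1 because it alone among the member promoters at hand held one of the motifs searched. RefSeq promoter windows (GRCm38.p6, 250 bases before to 50 after the start) matched 5 of the 8 members, with 7 windows in all. The searched motifs, on both strands, were the E-box CACGTG bound by MYC, the ATF4 response element TGATGNAA and the estrogen-related receptor element TNAAGGTCA. These letters were found in 7.15%, 3.97% and 1.28% of the 32851 promoter windows of the mouse table. Slc38a2 held none of these motifs within its window, which had 73.0% G and C (chr15:96699679-96699978, minus strand). Sequence outside the windows, introns included, was not searched, so elements there could not be found. The Slc43a1 window lies wholly inside the GENCODE gene, which begins at 84838850. It held 1 E-box, given in capitals, that begins 64 bases before the RefSeq start site (chr2:84840073-84840372, plus strand, 67.7% G and C). Both are written 5′ to 3′ along the gene.
Slc38a2: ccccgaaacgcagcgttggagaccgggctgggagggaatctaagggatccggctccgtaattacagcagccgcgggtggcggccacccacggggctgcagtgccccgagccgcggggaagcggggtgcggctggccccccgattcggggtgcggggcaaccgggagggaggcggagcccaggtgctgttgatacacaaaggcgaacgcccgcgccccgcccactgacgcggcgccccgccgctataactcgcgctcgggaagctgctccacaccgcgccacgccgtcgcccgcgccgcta
Slc43a1: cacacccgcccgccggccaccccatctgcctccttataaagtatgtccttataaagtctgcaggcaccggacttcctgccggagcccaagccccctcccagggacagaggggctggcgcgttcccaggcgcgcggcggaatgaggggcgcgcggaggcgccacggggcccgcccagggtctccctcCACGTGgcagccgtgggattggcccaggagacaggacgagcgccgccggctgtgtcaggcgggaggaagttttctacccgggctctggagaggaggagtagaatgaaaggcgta

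Slc7a1 (ENSMUSG00000041313, chromosome 5, 148327410 to 148399904, minus strand) encodes CAT1, the sodium-independent carrier of arginine and lysine. It was at 88.6, 91.5, 96.7 and 96.97 CPM in KO 1 to KO 4, against 94.8, 94.2, 90.2, 88.6 and 86.6 CPM in WT 1 to WT 5. The groups spanned nearly the same range, and the log2 fold change was 0.039 ± 0.043 (edgeR adjusted p = 0.631).

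Slc43a1 (ENSMUSG00000027075, chromosome 2, 84838850 to 84863594, plus strand) encodes LAT3, a facilitative carrier of branched-chain amino acids that needs neither sodium nor a heavy chain. It was the least abundant member, at 16.5, 9.24, 8.99 and 9.31 CPM in KO 1 to KO 4, against 8.39, 11.4, 10.4, 8.87 and 9.95 CPM in WT 1 to WT 5. KO 1, with 289 counts, stood alone above all other libraries. The log2 fold change was 0.17 ± 0.18 (SE, edgeR adjusted p = 0.632) and turned to -0.099 without KO 1. KO 1 also had the highest summed B cell and erythroid markers, at 53.1 and 28.01 CPM. WT ran from 32.4 to 41.8 and from 3.88 to 15.95 CPM. KO 4, with Slc43a1 at 9.31 CPM, came next in both sums, at 46.0 and 19.8 CPM. The part of these markers in the Slc43a1 value of KO 1 was not tested.

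Per unit of transcript length, Slc1a5 was the leading member in every library. Divided by the longest annotated transcript of each gene (GENCODE M21), it averaged 119 ± 6.80 CPM per kilobase over the 9 libraries (SD), rank 436 of 25406 genes placed on the annotation. Slc3a2 followed at 34.5 ± 2.42, Slc38a2 at 33.0 ± 6.77 and Slc38a1 at 27.1 ± 1.05 CPM per kilobase, at ranks 2084, 2188 and 2727. Slc7a6 (19.7 ± 1.19), Slc7a5 (15.7 ± 1.72) and Slc7a1 (12.8 ± 0.53) came next at ranks 3811, 4613 and 5328, and Slc43a1 (2.63 ± 0.63) at rank 9659.

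Most steps of this order were the same in all 9 libraries. Slc3a2 and Slc38a2 were in the stated order in 5 of 9 libraries, namely all 4 KO libraries and WT 2, and Slc38a2 and Slc38a1 in 7 of 9. Over all mice the ranges of both pairs overlapped. Within genotypes, Slc38a2 lay below Slc3a2 in KO (24.6 to 30.6 against 33.2 to 37.95 CPM per kilobase) and overlapped it in WT, while it overlapped Slc38a1 in KO and lay above it in WT (31.8 to 45.9 against 24.9 to 27.7 CPM per kilobase). The ranges of Slc7a6 and Slc7a5 overlapped over all mice, although Slc7a6 was the higher in 9 of 9. With the union of all annotated exons as length, Slc38a1 moved from the fourth to the sixth place, behind Slc7a6 and Slc7a5.

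**Figure D4:**
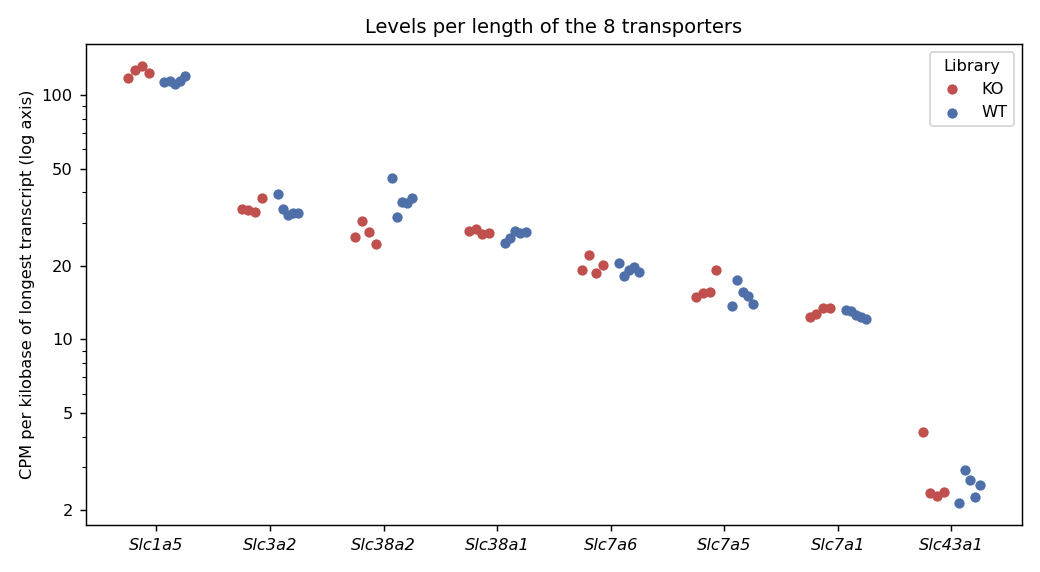
Level of each transporter in CPM per kilobase of its longest transcript (vertical log axis), ordered by the mean over 9 libraries; points are single libraries, KO in red at the left and WT in blue at the right. Slc1a5 lies above 111 in every library, Slc38a2 is the only gene whose groups separate, and Slc43a1 lies at 2.14 to 4.19.

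Outside the 8 members, a larger set of amino acid transporters held 1 more difference. Of 37 such genes, 28 were analysed and 10 were abundant enough to test, while 4 had 0 counts in all libraries. Of the 10, 1 was higher and 0 were lower in KO by edgeR, beside 1.4% and 1.88% of all tested genes. At an unadjusted edgeR p under 0.05, 4 of the 10 passed, beside 21.6% of all tested genes. The median log2 fold change of the 10 was 0.16, or 0.043 without KO 1 and KO 4. Their summed level was 318.8 to 339 CPM in KO and 287.6 to 305.7 CPM in WT. The called gene was Slc43a2, which encodes LAT4, a facilitative carrier of branched-chain amino acids related to Slc43a1. It ranged from 127.8 to 146.5 CPM in KO, against 105 to 123 CPM in WT, with no overlap, and averaged 136 ± 8.52 CPM in KO and 115 ± 7.15 CPM in WT (SD). The groups also failed to overlap for Slc38a10, higher in KO, and Slc38a6, lower in KO, neither of which was called. Over all tested genes, 9.11% did not overlap. KO over WT, the estimate for Slc43a2 was 0.24 ± 0.05 in log2 units (adjusted p = 0.0334 by edgeR). Its call ended without WT 3, WT 4, WT 5, KO 1, KO 2 or KO 4, with adjusted p up to 0.0975, and without KO 1 and KO 4 together it was 0.148.

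The list of lysosomal amino acid transporters, which return amino acids from digested protein to the cytosol, had 0 of 9 tested genes past the threshold and a median of -0.024. These 9 genes include Slc17a9, which encodes a nucleotide carrier, at 128 CPM in KO and 130 CPM in WT on average. Their smallest p was that of Slc38a9, the arginine sensor of the lysosome, at 45.1 ± 4.19 CPM in KO and 53.3 ± 3.84 CPM in WT (log2 fold change -0.24 ± 0.07, edgeR adjusted p = 0.0825). Slc15a3, a peptide and histidine carrier, had 0.38 ± 0.19 (edgeR adjusted p = 0.256), with 0.25 without KO 1 and 0.025 without KO 1 and KO 4. At an unadjusted edgeR p under 0.05, 1 of the 9 passed, and 1 by DESeq2's adjusted p. Over all tested genes those shares were 21.6% at the unadjusted cut and 6.58% by DESeq2, the background for the same counts in the lists that follow.

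**Figure D5:**
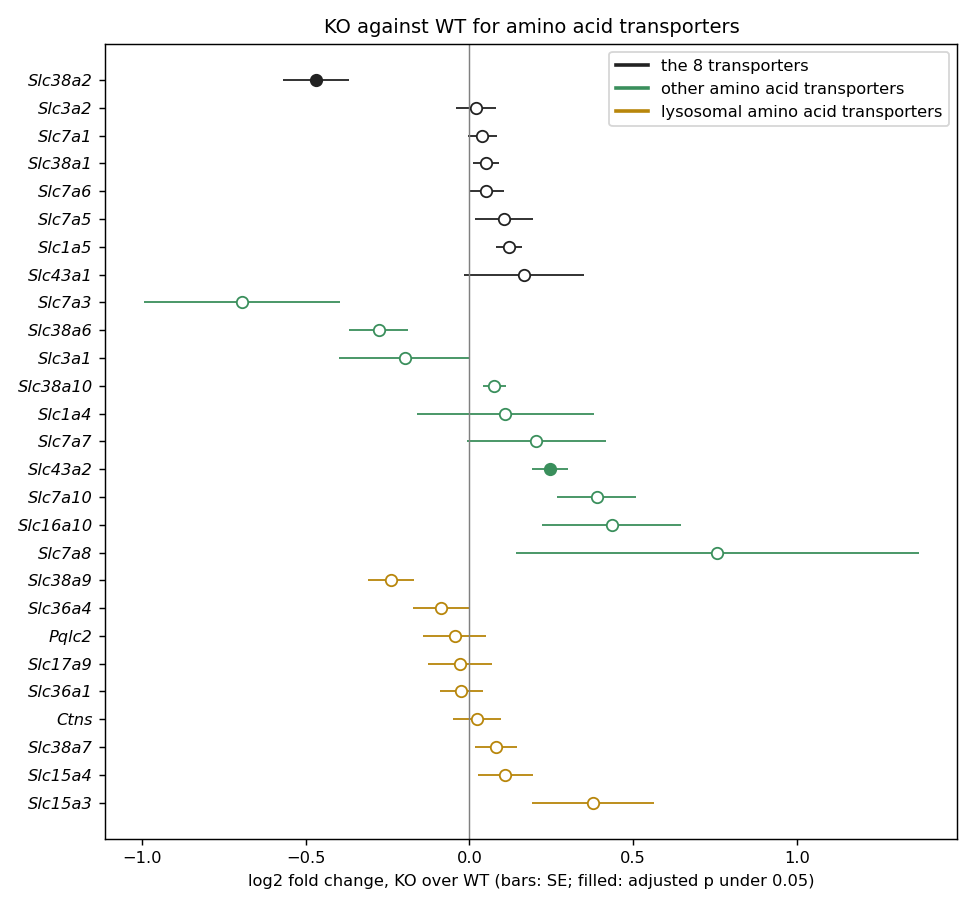
Log2 fold change, KO over WT (horizontal axis), with its SE as bars, for the 8 transporters (black), 10 other amino acid transporters (green) and the 9 genes of the lysosomal list (ochre), which include the nucleotide carrier gene Slc17a9. Filled points passed an adjusted p of 0.05 by edgeR. The filled points are Slc38a2 at -0.47 and Slc43a2 at 0.24.

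Genes that sense amino acids for mTORC1 or for the kinase GCN2 had 0 of 26 past the threshold by edgeR (7 at an unadjusted p under 0.05, and 3 by DESeq2) and a median log2 fold change of 0.0078. Closest were the GATOR genes Mios, at -0.20 ± 0.05 (edgeR adjusted p = 0.0522), and Nprl3, at -0.22 ± 0.06 (0.0567). Among ATF4 and its targets, 1 of 16 passed by edgeR (3 at an unadjusted p under 0.05, and 1 by DESeq2) and the median was 0.020. That gene was Psat1, an enzyme of serine synthesis, at 67.8 ± 7.70 CPM in KO and 51.8 ± 4.56 CPM in WT, which rose by 0.39 ± 0.08 (adjusted p = 0.0262) and had 0.27 (0.135) without KO 1 and KO 4. Psat1 also missed the threshold when any 1 of WT 1, WT 3, WT 4, WT 5, KO 1 and KO 4 was left out, with adjusted p up to 0.0808.

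Cytosolic aminoacyl-tRNA synthetases, which load amino acids onto tRNA, had 0 of 20 past the threshold by edgeR (9 at an unadjusted p under 0.05, and 2 by DESeq2) and a median of 0.096, or 0.061 without KO 1 and KO 4, with 18 of 20 positive in both. Their summed level was 1991 to 2117 CPM in KO and 1889 to 1985 CPM in WT. Rars, for arginine, was at 0.16 ± 0.04 (edgeR adjusted p = 0.0613) and Eprs, for glutamate and proline, at 0.14 ± 0.04 (0.0802). MYC drives many transporter genes in activated T cells. The list of MYC and its partners also holds genes that oppose it, such as Mnt, Mxd1 and Mxd3. Its median is therefore no measure of MYC activity. It had 0 of 10 past by edgeR (5 at an unadjusted p under 0.05, and 2 by DESeq2). The median was -0.091 with 2 of 10 positive, or -0.054 with 4 of 10 positive without KO 1 and KO 4. The smallest p-values of the list were those of Mlxip at -0.14 ± 0.04 (edgeR adjusted p = 0.0756) and, on the positive side, Mxd3 at 1.31 ± 0.44 (0.142).

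The cell cycle list had 0 of 20 past the threshold by edgeR (12 at an unadjusted p under 0.05, and 3 by DESeq2), while 20 of 20 were positive, with a median of 0.85, or 0.18 without KO 1 and KO 4. Lowest in p were Mcm4 at 0.27 ± 0.07 (edgeR adjusted p = 0.0613) and Tyms at 0.60 ± 0.16 (0.0715). Immediate early genes had 1 of 19 past by edgeR (2 at an unadjusted p under 0.05). The called gene was the transcription factor gene Egr2, which rose by 0.29 ± 0.07 (edgeR adjusted p = 0.0368). The list's median was -0.36 with 3 of 19 positive. Without WT 1 that median was 0.034, with 11 of 19 positive. The call of Egr2 ended without WT 1, WT 3, WT 4, KO 1, KO 3 or KO 4, with adjusted p up to 0.0966. Treg markers had 0 of 7 past by edgeR (2 at an unadjusted p under 0.05, and 0 by DESeq2), while plasma cell markers had 1 of 6 past by edgeR, 6 of 6 at an unadjusted p under 0.05 and 2 by DESeq2. All 6 were positive, with a median of 1.49, or 0.28 without KO 1 and KO 4, and the called gene was Xbp1, a transcription factor of secretory cells (0.25 ± 0.06, edgeR adjusted p = 0.0324). Leaving out any 1 of WT 1, WT 3, WT 4, WT 5, KO 3 and KO 4 took Xbp1 off the called genes, with adjusted p up to 0.0821. Leaving out WT 2 brought Slc38a9, Eprs, Mlxip, Mxd3, Mcm4 and Tyms past the threshold, leaving out KO 2 did so for Mcm4 and Tyms, and leaving out KO 1 for Nprl3.

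The genes most like each member were found by Pearson's r of log2 CPM over the 9 libraries, among 8782 genes with a mean of at least 10 CPM. These r values are the highest of many and share each library's depth and makeup, so they are descriptions. They were taken over both groups without centring, so a shared difference between the groups raises them. Calls among the genes picked this way are therefore no separate result. Slc38a2 was most like Acss1 (r = 0.98), a mitochondrial acetyl-CoA synthetase gene, Zzz3 (0.98) and Pitpnm1 (0.97), and without WT 1 these were 0.98, 0.98 and 0.99. Acss1 and Pitpnm1 were also called lower in KO, at -0.29 and -0.16 on the log2 scale (edgeR adjusted p = 0.0271 each).

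Slc7a5 was most like Mrps18b (0.96), Eif3b (0.94) and Nutf2 (0.93), and Slc3a2 like Abcb1b (0.96), Trappc9 (0.91) and Cspp1 (0.91). Slc1a5 was most like Ppp4c (0.95), Tox4 (0.94) and Ywhab (0.94), of which Ywhab was called higher in KO (0.24, edgeR adjusted p = 0.0242). For Slc38a1 the genes were Mllt11, Larp4b and Dnajc19 (0.96, 0.95 and 0.95), for Slc7a1 Nfu1, Gde1 and Nol11 (0.95, 0.93 and 0.93), for Slc7a6 Ap4s1, Ube2q2 and Dhrs7b (0.97, 0.91 and 0.91), and for Slc43a1 Arhgef3, Glb1 and Serpina3g (0.95, 0.95 and 0.94). No gene was named for more than 1 member.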

How the data were processed

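Sample titles gave the groups, 4 KO and 5 WT mice, each with 1 RNA library of sorted Treg cells; nothing else ties mice of the groups together. The authors deposited raw counts per gene symbol, whole numbers with a different total in each library. Per the labels' protocols, the library kit was TruSeq Stranded. STAR 2.7, DESeq2 and mm10 are named with no role, per the submitters' processing notes, while the counter, its annotation and its use of strand are not stated in those notes.

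The test was edgeR 4.0.16's (R 4.3.3) robust quasi-likelihood F test with trimmed-mean scaling, run on the 12738 genes that its default expression filter kept. CPM used library totals times factors of 0.982 to 1.01, log2 CPM a prior count of 2, and SE came from the log2 fold change and F. Member counts ran from 135 to 5798 per library. Intervals and floors (3 counts) cover counting error only. Lengths and positions came from GENCODE M21 (mm10), with 24788 symbols matched by name and 618 by RefSeq synonym.

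The members and lists were chosen with earlier results of these data known. Named were all members and the 3 genes most like each member. From each list came up to 4 called genes, or else the 2 with the smallest p. Marker lists are given by summed level, with call counts for Treg and plasma cell markers. Levels of single plasma cell and neutrophil markers were added after seeing the data, and Xbp1 is the only marker gene named with its fold change. Alternatives were other scalings and filters, DESeq2 1.42.0, limma-voom (limma 3.58.1), replicate blocks, libraries left out, and a cell cycle covariate chosen after seeing the data.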

Additional observations from a re-analysis of the deposited data

Results flagged for a closer look

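In a group of 4 or 5 mice, a library was picked out where its gap to the nearest other library filled most of the group's range (Dixon's criterion). Of 46 groups examined, 7 met it, and chance gives about 5% of groups. Slc43a1 was at 16.5 CPM in KO 1, against 8.99 to 9.31 CPM in the other KO libraries. Slc7a5 was at 67.6 CPM in KO 4, against 52.5 to 54.96 CPM in the other KO libraries, and the same library had the highest summed tRNA synthetases, at 2117 CPM against 1991 to 1996 CPM. Slc3a2 was at 110.4 CPM in WT 1, against 90.7 to 96.4 CPM in the other WT libraries, and immediate early genes summed to 9844 CPM there, against 2600 to 3268 CPM. WT 2 had the highest tRNA synthetase sum of its group, at 1985 CPM against 1889 to 1911 CPM, and the highest cell cycle sum, at 1284 CPM against 814 to 939 CPM.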

How the results depend on the processing

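The number of genes past the threshold was 418, and with a library left out it ran from 97 (without WT 3) to 697 (without WT 2), and leaving out WT 4 gave 134, WT 5 gave 117, KO 3 gave 182 and KO 4 gave 103. It was 888 by DESeq2, 118 without KO 1 and KO 4, 250 without WT 1, KO 1 and KO 4, and 47 with the cell cycle covariate. Other amino acid transporters had 1 gene past, 0 under those last 3 alternatives, and 0 to 1 with a library left out. Replicate numbers gave no sign of pairing, as same-numbered deviations correlated between -0.067 and 0.10 by title and between -0.26 and 0.099 by bracketed number. Whether same-numbered mice shared a batch was not tested. A replicate block by title number left 26 genes past, Slc38a2 had -0.46 (adjusted p = 0.218) and other transporters had 0 past. With the bracketed number as a block 443 genes passed, Slc38a2 had -0.52 (0.0344) and other transporters had 0 past. No KO library correlated best with its own number.

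The log2 fold change of Slc38a2 was -0.47 with no expression filter (adjusted p = 0.0861), -0.38 without KO 1 and KO 4, -0.30 without WT 1, KO 1 and KO 4 (0.0763), -0.29 with the covariate, and -0.53 to -0.39 with a library left out; the cause was not tested. Signs turned, none past the threshold, for Slc7a5 (-0.0018 without WT 1, KO 1 and KO 4, and -0.047 with the covariate), Slc3a2 (-0.036 without KO 1 and KO 4, -0.043 with the covariate, and -0.029 to 0.071 with a library left out), Slc43a1 (-0.11 without KO 1 and KO 4, -0.16 without WT 1 too, -0.090 with the covariate, and -0.099 to 0.25 with a library left out), Slc7a6 (-0.0019 to 0.082 with a library left out) and Slc15a3 (-0.072 with the covariate). With the union of exons as length, the ranks were 3704 for Slc7a5, 1893 for Slc3a2, 495 for Slc1a5, 4695 for Slc38a1, 5934 for Slc7a1 and 3397 for Slc7a6. The correlation of Slc7a5 with Slc1a5 was -0.13 within groups, and that of Slc3a2 with Slc7a5 ran from -0.42 to 0.81 with a library left out. Slc43a1 had 135 to 289 counts per library.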

Other observations

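The 8 transporters together took a similar share of the RNA in both genotypes, at 1018, 1083, 1059.5 and 1051 CPM in KO 1 to KO 4 and 1120, 1037, 1056, 1058 and 1078 CPM in WT 1 to WT 5. Per length of the longest transcript, Slc3a2 was 0.90 to 0.999 times the level of Slc7a5 and Slc7a6 together in KO. In WT it was 0.92 to 1.15 times that level, highest in WT 1. The ratio depends on the length used. With the union of exons, the means were 27.5 CPM per kilobase for Slc3a2, 16.1 for Slc7a6 and 14.9 for Slc7a5.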
